A study of Rattus norvegicus with 6 samples.

Results

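Glutamate and GABA receptor genes were followed in rat primary cortical cells that had received a Math2 expression vector or a control vector. A probe set, the group of array probes that measures 1 transcript, was a member when the platform annotation gave it a single gene symbol of the AMPA (Gria), kainate (Grik), NMDA (Grin1, Grin2 and Grin3), metabotropic glutamate (Grm), GABA-A (Gabra, Gabrb, Gabrg, Gabrd, Gabre) or GABA-B (Gabbr) receptor families. The names alone selected 61 of 31042 probe sets, for 36 genes. Each of the 2 groups had 3 arrays, numbered 1 to 3 in the titles. In both groups a truncated form of the low-affinity nerve growth factor receptor (LNGFR) was co-transfected as a surface tag and cells bearing it were isolated after 24 h, so selection was for the tag and not for Math2 itself. Math2, now called Neurod6, is a bHLH (basic helix-loop-helix) transcription factor of excitatory cortical neurons, and the series set out to find genes that it regulates. The sources used here give neither strain nor age, and do not say whether numbered samples were separate cultures; p-values therefore cover only the sample-to-sample spread, part or all of which may be technical.

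Glutamate is the main excitatory transmitter of the cortex and GABA the main inhibitory one. AMPA, kainate and NMDA receptors are glutamate-gated cation channels assembled from 4 subunits, and metabotropic glutamate receptors act through G proteins. GABA-A receptors are chloride channels assembled from several subunit families, whereas GABA-B receptors are G protein-coupled dimers. In the developing cortex the subunit make-up of these receptors shifts as neurons mature, and astrocytes and their progenitors express some of them too.

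Signals were MAS5 intensities on a linear scale, with array medians of 102 to 120. The table held no detection calls, so signals near or below those medians are uncertain, and the number of arrays limits the precision. The probe set of Neurod6 read 386, 207 and 973 in the control group (arrays 1, 2 and 3) and 312, 167 and 1546 in the Math2 group (the insert of the vector is not described, so this probe set may miss it and is no check of the labels). Added hybridization transcripts ran from 1893 to 2566 on control arrays and from 3875 to 6773 on Math2 arrays, so the groups did not overlap. Math2 array 1 had the 6773, against 4044 and 3875 on Math2 arrays 2 and 3. The brightest 1% of tested probe sets had a median log2 difference of 0.43, against -0.031 over all tested; 0 members were among that 1%. The Gapdh 3' to 5' signal ratio, a measure of RNA and labelling quality, ran from 3.74 to 13.8 in the control group and from 6 to 8.48 in the Math2 group. Control array 1 had the 13.8, against 3.74 and 5.04 on control arrays 2 and 3. The arrays numbered 1 thus held the highest value of both measures, and the part of either in the receptor differences was not tested. Of the marker lists, 16 of 20 pan-neuronal, 9 of 11 astrocyte, 10 of 12 fibroblast and meningeal, 7 of 12 oligodendrocyte lineage and 2 of 12 microglial genes were bright enough to be tested, and 0 values of the table were 0. Neuronal, astrocyte and mesenchymal markers were thus all represented, and microglial markers were mostly below the filter.

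No glutamate or GABA receptor probe set differed between the groups after adjustment. Of the 61 members, 22 probe sets for 18 genes passed the filter on low signals and were tested among 18625 probe sets. In limma 0 of these 22 had a Benjamini-Hochberg adjusted p under 0.05, with or without the replicate number as a block; over all tested probe sets the share called was 0.00% without and 0.0161% with the block. At an unadjusted p under 0.05 there were 0 of 22 members without the block (3.19% of all tested) and 1 of 22, Grm8, with it (7.70% of all tested). The groups overlapped for each of the 22. Over all tested probe sets 4.30% were lower and 3.70% higher on every Math2 array, and at such low shares 0 of 22 does not set the members apart. No tested member had a log2 difference of 1 or more in either direction.

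The direction of the differences was mostly downward, and it depended on the arrays used. The median moved closest to 0 without Math2 array 1 or control array 3. Of the 22 tested probe sets, 16 were lower and 6 higher in the Math2 group, where 54.3% of all tested probe sets were lower. With 1 probe set per gene, the brightest, 13 of 18 genes were lower and the median log2 difference was -0.20. Between the arrays numbered 1, 18 of the 22 probe sets were lower with Math2 (52.1% of all tested), against 11 of 22 between those numbered 2 (48.7%) and 11 of 22 between those numbered 3 (54.5%). Without Math2 array 1 the receptor median was -0.022, with 9 genes higher and 10 lower of the 19 that then passed the filter, and without control array 3 it was -0.035, with 8 higher and 10 lower. Leaving out Math2 array 2 also gave 8 higher and 10 lower, with a median of -0.16. Of the 22 probe sets, 5 were lower in 3 of 3 numbered pairs (15.2% of all tested), namely Grm8, Gabrb1, Grik2 and 1 probe set each of Gria4 and Gabbr1, and 1, of Gria3, was higher in 3 of 3 (13.1%). In bulk RNA, fewer cells of a type and less RNA per cell cannot be told apart.

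**Figure D1:**
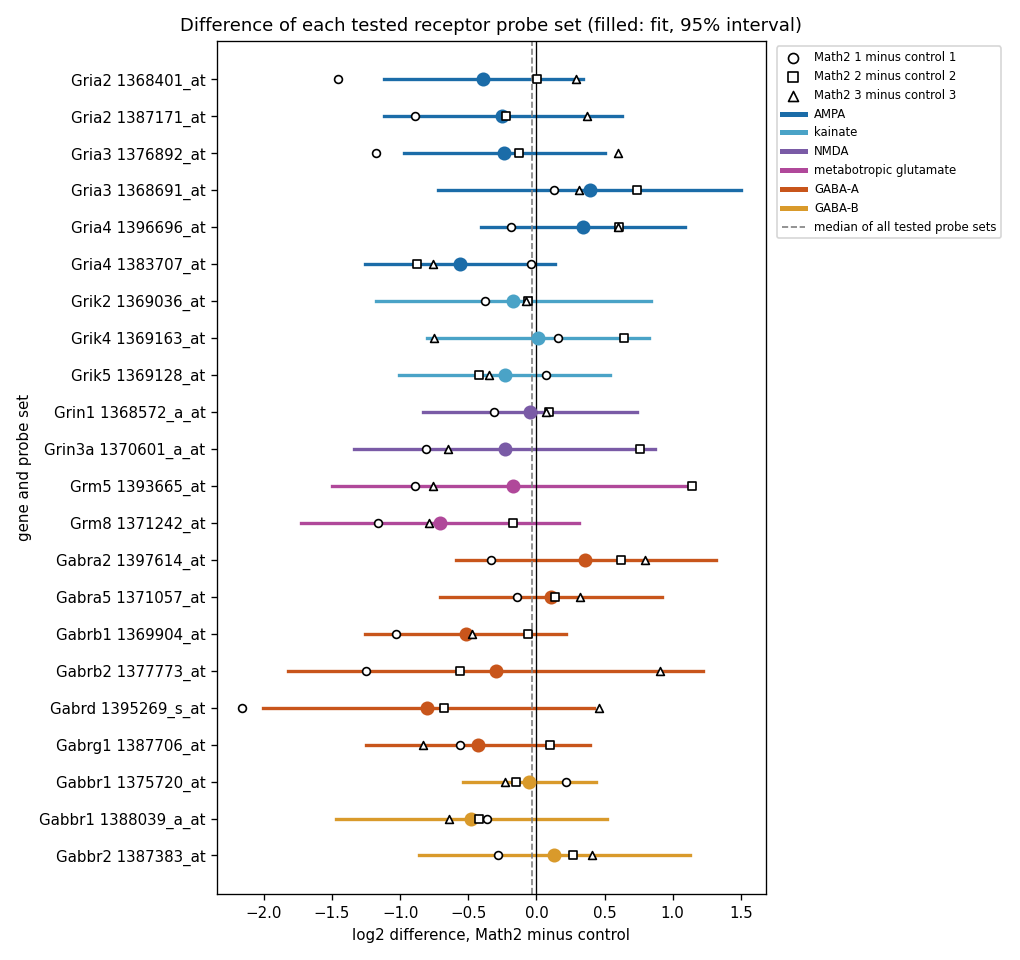
Log2 difference, Math2 minus control, of the 22 tested receptor probe sets (filled points, with 95% intervals from limma as bars) and the difference within each numbered pair of arrays (open symbols); the dashed line is the median of all tested probe sets, -0.031. Each of the 22 intervals, from the fit without the replicate block, includes 0, and the open circles of pair 1 lie left of 0 for 18 of the 22. With the block, the Grm8 interval was -1.26 to -0.16 and did not include 0.

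Gria4, Gabrb1 and Grm8 ranked first among the tested members by unadjusted limma p (adjusted p = 1 for each), and since bHLH factors bind the E-box, the letters CANNTG on either strand, their upstream sequences are shown with each such match in capitals. Gria4 ranked there by the dimmer of its probe sets, while by the brighter one it pointed up and Gabrd would stand in its place. The choice of these 3 was made after their values were seen. Each run is the 250 bases before the RefSeq gene start in GRCr8, on the minus strand, 5' to 3': chr8:10319882-10320131 for Gria4, chr14:36902894-36903143 for Gabrb1 and chr4:57687507-57687756 for Grm8.
Gria4: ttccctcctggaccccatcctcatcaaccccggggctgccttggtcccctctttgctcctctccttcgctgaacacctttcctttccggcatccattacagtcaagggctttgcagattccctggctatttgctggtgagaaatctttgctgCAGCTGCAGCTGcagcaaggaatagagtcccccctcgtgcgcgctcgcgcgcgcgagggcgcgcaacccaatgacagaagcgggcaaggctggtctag
Gabrb1: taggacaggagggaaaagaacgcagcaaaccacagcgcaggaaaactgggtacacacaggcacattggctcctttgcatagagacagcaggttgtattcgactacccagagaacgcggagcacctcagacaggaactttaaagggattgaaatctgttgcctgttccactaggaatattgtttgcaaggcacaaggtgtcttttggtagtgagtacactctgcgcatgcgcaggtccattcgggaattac
Grm8: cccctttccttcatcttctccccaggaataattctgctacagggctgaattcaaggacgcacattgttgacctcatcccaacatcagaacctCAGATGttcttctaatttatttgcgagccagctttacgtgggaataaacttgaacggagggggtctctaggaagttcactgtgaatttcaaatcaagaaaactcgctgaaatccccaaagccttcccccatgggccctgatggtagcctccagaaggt
The Gria4 window held 2 matches, adjoining each other, the Grm8 window 1, and the Gabrb1 window 0, which says only that these letters are not in this window. The window of Gabrd, which by brightest probe sets would replace Gria4 and is not printed here, also held 0. The Grm8 match read CAGATG. Upstream windows were at hand for 26 of the 36 receptor genes, and 14 of the 26 (53.8%) held at least 1 match, against 65.2% of all 27457 windows of the same length. CAGATG or its reverse complement CATCTG, which are included in CANNTG, stood in 7.69% of the receptor windows and 13.7% of all. A match is a description of the letters and not a site.

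Of the AMPA receptor subunits, which carry most fast excitatory transmission, Gria2, Gria3 and Gria4 were tested and Gria1 was too dim. Gria2 encodes the subunit that, after RNA editing, keeps calcium out of the channel. The brighter of its probe sets (1368401_at) had signals of 1946, 1454 and 1281 in the control group (arrays 1, 2 and 3) and 705, 1455 and 1569 in the Math2 group. Math2 array 1 was the lowest of the 6, and the other Math2 arrays lay within the control range. The log2 difference was -0.39 (95% interval -1.12 to 0.34; limma adjusted p = 1), and without Math2 array 1 it was -0.024. The other Gria2 probe set (1387171_at) read 2090, 878 and 1512 in the control group and 1125, 753 and 1950 in the Math2 group, a log2 difference of -0.25 (-1.12 to 0.63), so both pointed down and both changed with the array used.

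Gria3 and Gria4 each had a pair of tested probe sets that pointed in opposite directions. For Gria3, 1376892_at read 942, 675 and 553 in the control group and 410, 617 and 845 in the Math2 group, a log2 difference of -0.24 (-0.97 to 0.50), and the groups overlapped. The dimmer Gria3 probe set (1368691_at) had group means of 72.7 ± 33.5 and 106 ± 73.6 (SD, n = 3), below or near the array medians, with a log2 difference of 0.39 (-0.72 to 1.50). For Gria4, 1396696_at read 591, 263 and 327 in the control group and 519, 404 and 500 in the Math2 group, a difference of 0.34 (-0.41 to 1.09). The other Gria4 probe set (1383707_at) read 246, 347 and 431 and then 239, 186 and 252, so that control arrays 2 and 3 lay above every Math2 array and control array 1 did not. Its log2 difference was -0.56 (-1.26 to 0.14; limma adjusted p = 1, and 0.672 with the block). Which transcripts of each gene these probe sets detect was not analysed here, so neither direction can be assigned to the gene. The AMPA median over 3 genes was -0.24, and it was 0.032 without Math2 array 1 and 0.075 without Math2 array 2.

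**Figure D2:**
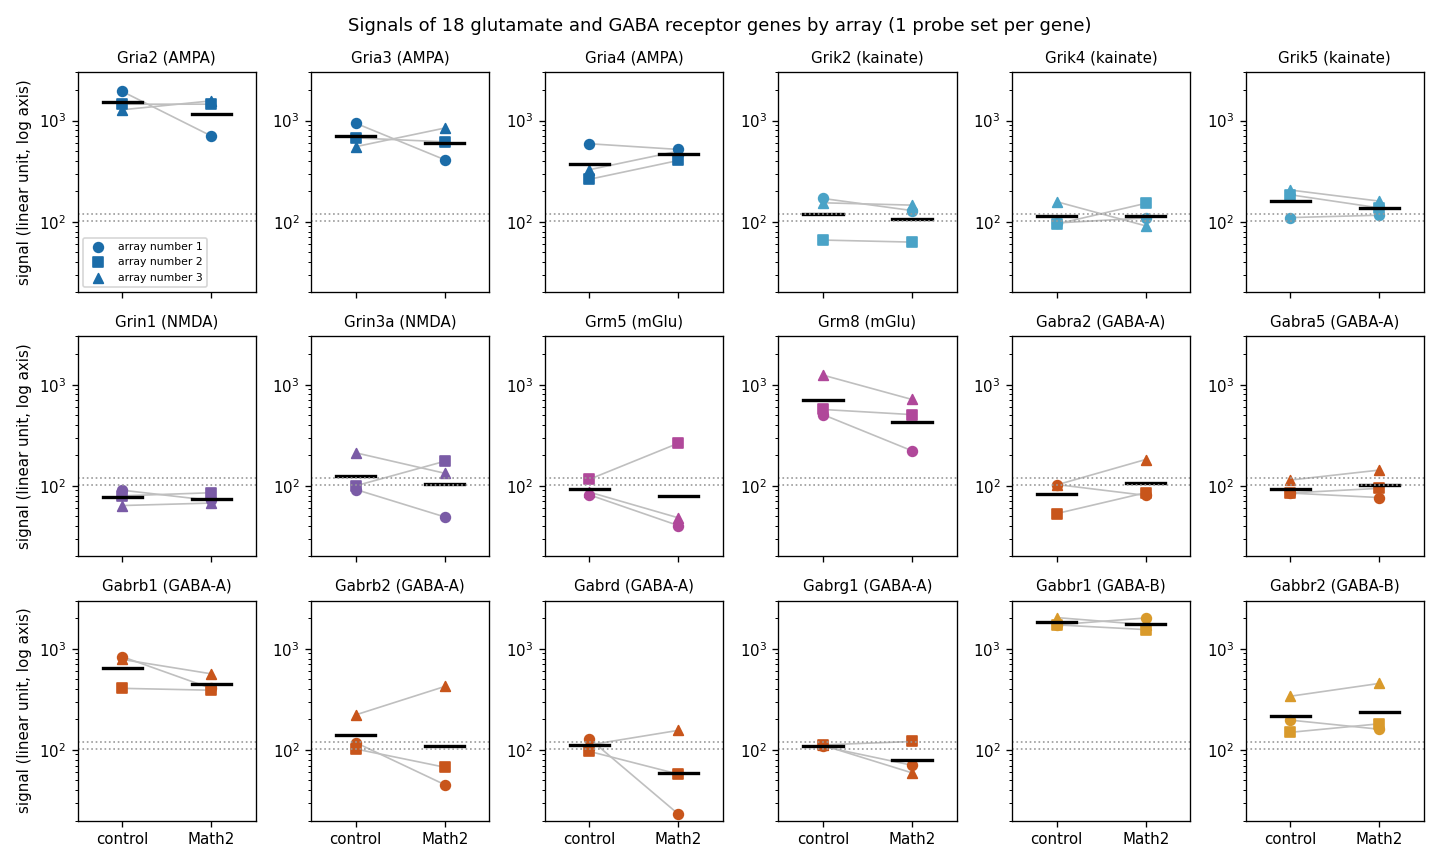
Signal (linear unit, log axis) of 18 receptor genes, each by its brightest tested probe set, on control and Math2 arrays; symbols mark the array number, grey lines join arrays of like number, black bars are geometric means and dotted lines mark the array medians of 102 and 120. The groups overlap in every panel, and all 6 Grin1 points lie below the dotted lines.

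Kainate receptor subunits modulate transmitter release and network excitability. Grik2, a principal pore-forming subunit, read 170, 65.9 and 154 in the control group and 129, 62.9 and 146 in the Math2 group. Array number 2 was the lowest in each group, and the log2 difference was -0.17 (-1.18 to 0.84). Grik5, a high-affinity auxiliary subunit that needs a partner to reach the surface, read 110, 185 and 206 and then 116, 137 and 160, a difference of -0.23 (-1.01 to 0.54). Grik4, of the same high-affinity type, had means of 117 ± 35.9 and 117 ± 31.1 (SD, n = 3) and a difference of 0.015 (-0.80 to 0.83). The class median over these 3 was -0.17. Grik1 and Grik3 were not tested. Grik3 read 27.9, 33.2 and 65.0 in the control group and 3.7, 5.89 and 1.69 in the Math2 group; the groups did not overlap, but every one of these signals lay below the array medians, so no fold is given.

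NMDA receptors, which need glutamate and a co-agonist and admit calcium, were mostly below the filter, with 2 of 13 probe sets tested. Grin1 encodes the obligatory subunit. It read 90.5, 79.6 and 63.8 in the control group and 71.6, 85.4 and 67.5 in the Math2 group, each below the array medians. Its log2 difference was -0.048 (-0.83 to 0.74). Grin3a, a subunit that lowers calcium permeability and is prominent in early postnatal cortex, read 91.9, 100 and 212 and then 49.2, 175 and 133. Math2 array 1 was the lowest and control array 3 the highest, and the difference was -0.23 (-1.34 to 0.87). The 8 probe sets of the glutamate-binding subunits Grin2a, Grin2b, Grin2c and Grin2d and the 2 of Grin3b, as well as another one of Grin1, did not pass the filter.

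Grm8, a presynaptic group III receptor that restrains transmitter release, was the tested glutamate receptor gene with the largest difference. Its tested probe set read 506, 569 and 1244 in the control group (arrays 1, 2 and 3) and 222, 506 and 714 in the Math2 group. Within each group array 3 was the highest and array 1 the lowest, and each Math2 array lay below the control array of its number, so the groups overlapped while 3 of 3 pairs were lower. The means were 773 ± 409 and 481 ± 247 (SD, n = 3), and the log2 difference was -0.71 (-1.73 to 0.31; limma adjusted p = 1). With the replicate block the interval was -1.26 to -0.16 and the unadjusted limma p 0.0156, but the adjusted p was 0.51. Leaving out 1 array at a time gave differences from -1.07 to -0.24. The other probe sets of Grm8, like those of Grm2, Grm3, Grm4, Grm6 and Grm7, were below the filter. Grm5, a group I receptor of neurons and astrocytes coupled to phospholipase C, read 81.4, 116 and 86.6 and then 40.4, 264 and 48.2. Math2 array 2 was the highest of the 6 and the other Math2 arrays the lowest, and the difference was -0.17 (-1.50 to 1.16). The Grm4 probe set read 23.7, 55.5 and 54.7 in the control group and 63.4, 55.8 and 62.6 in the Math2 group, below the array medians, and did not overlap. The median of the 2 tested metabotropic genes was -0.44, and leaving out 1 array moved it from -0.89 (without Math2 array 2) to 0.023 (without Math2 array 1).

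Of the GABA-A receptor subunits 6 of 11 genes were tested, with a median log2 difference of -0.37, and 4 were lower and 2 higher. Without Math2 array 1 that median was 0.04. Gabrb1, a beta subunit that takes part in forming the GABA binding site, read 835, 406 and 784 in the control group and 405, 389 and 565 in the Math2 group. Control arrays 1 and 3 were above every Math2 array, and control array 2 was not. The log2 difference was -0.52 (-1.26 to 0.22; limma adjusted p = 1, and 0.666 with the block), and leaving out 1 array at a time gave -0.85 to -0.33. Gabrd, the delta subunit of extrasynaptic receptors, read 129, 96.6 and 112 and then 23.1, 57.5 and 156. Its Math2 arrays spread from well below to above the control range, with a difference of -0.80 (-2.01 to 0.42), which was -0.21 without Math2 array 1 and -1.42 without Math2 array 3. The signals of control array 1 and Math2 array 3 lay above the array medians and the others below them. The probe set is of a type (suffix s_at) that can detect several transcripts. Other Gabrd probe sets, 1369048_at and 1395270_x_at, were below the filter and did not point down. Gabrg1, a gamma subunit found in glia and some neurons, read 108, 112 and 111 and then 70.4, 121 and 59.2, a difference of -0.43 (-1.25 to 0.39).

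The other GABA-A subunits had differences with wide intervals around 0. Gabrb2, a beta subunit of most mature synaptic receptors, read 118, 102 and 222 and then 45.2, 67.3 and 424, so that array 3 was the highest in each group. Its log2 difference was -0.30 (-1.82 to 1.22). The alpha subunits set the response to GABA and to benzodiazepines. Gabra2, abundant in the immature cortex, had means of 85.9 ± 28.3 and 116 ± 57.3 (SD, n = 3) and a difference of 0.36 (-0.59 to 1.32). Gabra5, of extrasynaptic receptors, had means of 94.4 ± 16.6 and 105 ± 34.6 and a difference of 0.11 (-0.71 to 0.92). Gabra3, Gabra4, Gabra6, Gabre and Gabrg3 were below the filter.

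GABA-B receptors are formed by Gabbr1, which binds GABA, and Gabbr2, which couples to the G protein. The brighter Gabbr1 probe set (1375720_at) varied least of the tested members, with signals of 1726, 1723 and 2034 in the control group and 2015, 1547 and 1731 in the Math2 group. Its log2 difference was -0.054 with the narrowest interval, -0.54 to 0.44. The dimmer Gabbr1 probe set (1388039_a_at) read 159, 310 and 471 and then 122, 229 and 300. It was lower in 3 of 3 pairs with overlapping groups, and the difference was -0.48 (-1.47 to 0.52; limma adjusted p = 1, and 0.722 with the block), with -0.88 to -0.12 when 1 array was left out. Gabbr2 read 197, 149 and 339 and then 160, 181 and 454, a difference of 0.13 (-0.86 to 1.13). Array 3 was the highest in each group for Gabbr2, as it was for the dimmer Gabbr1 probe set.

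Receptor levels varied between arrays of the same group. Relative to the control mean, the median over the 18 genes was -0.055, -0.22 and 0.27 in the control group (arrays 1, 2 and 3) and -0.53, -0.13 and 0.054 in the Math2 group. The GABA receptors alone gave -0.055, -0.31 and 0.27 and then -0.50, -0.24 and 0.52, so array 3 was the highest in each group. The AMPA genes gave 0.41, -0.079 and -0.26 on the control arrays and -0.77, -0.078 and 0.26 on the Math2 arrays. Pan-neuronal markers gave -0.20, -0.45 and 0.69 and then -0.41, -0.20 and 0.83, with array 3 likewise the highest in each group. Their summed signal ran from 19806 to 34270 on control arrays and from 19982 to 42266 on Math2 arrays. Excitatory neuron markers gave 0.018, -0.60 and 0.41 and then 0.32, -0.044 and 1.12, and inhibitory neuron markers 0.25, -0.50 and 0.40 and then -0.23, -0.33 and 0.088. Astrocyte markers ran the other way on the third arrays, at -0.25 in the control group and -0.62 in the Math2 group, and their summed signal ran from 28620 to 37897 and from 25561 to 41536. Fibroblast and meningeal markers gave 0.10, -0.26 and 0.27 and then -0.28, -0.36 and -0.29, so control array 2 was level with the Math2 arrays. Of 10 such genes 9 were lower and 1, Pdgfrb, higher (log2 difference 1.77, limma adjusted p = 1), with summed signals of 9876 to 13555 in the control and 9710 to 10088 in the Math2 group. The control signals of Pdgfrb, 62.9, 37.2 and 54.8, lay below the array medians. Higher and lower genes numbered 11 and 5 for pan-neuronal, 7 and 3 for excitatory, 1 and 6 for inhibitory and 4 and 5 for astrocyte markers. The part of cell make-up in the receptor differences was not tested.

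**Figure D3:**
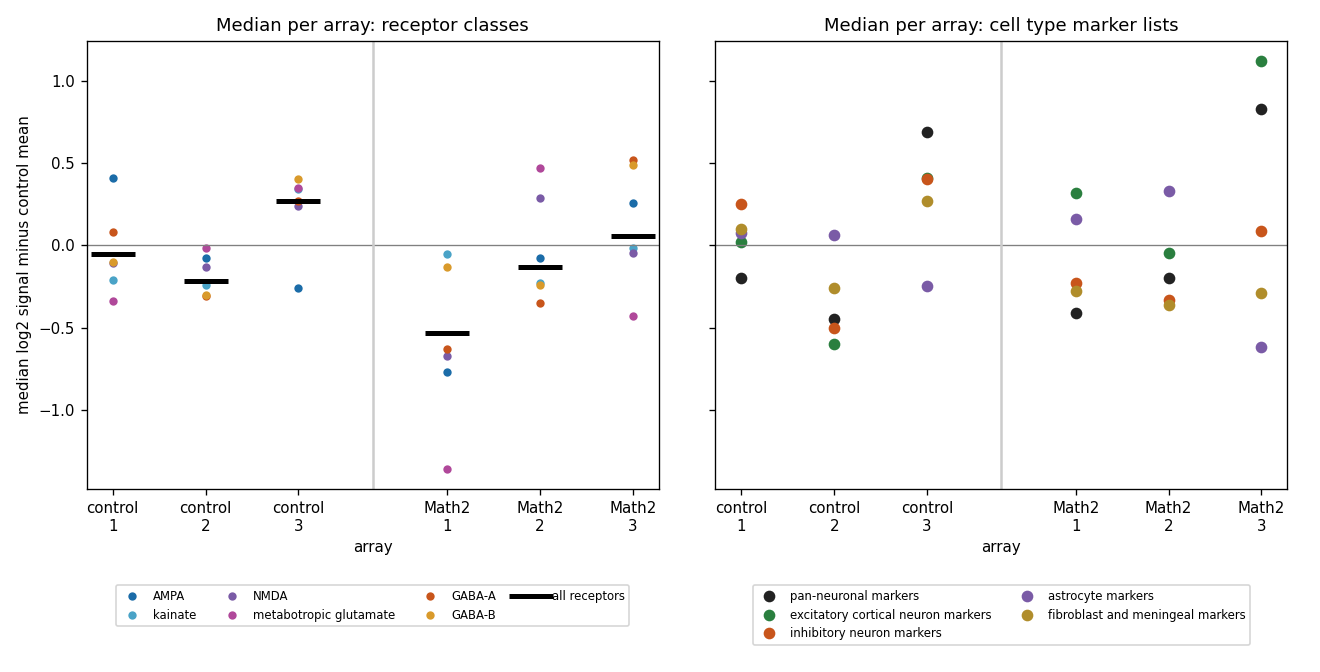
Median log2 signal of each receptor class (left; the black bars are all 18 receptor genes) and of 5 cell type marker lists (right) on each array, minus the mean of the control arrays. Math2 array 1 has the lowest receptor median, -0.53, while control array 3 and Math2 array 3 have the highest pan-neuronal medians, 0.69 and 0.83.

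The 39 receptor probe sets that did not pass the filter included 18 genes with no tested probe set. These were Gria1, Grik1, Grik3, Grin2a, Grin2b, Grin2c, Grin2d, Grin3b, Grm2, Grm3, Grm4, Grm6, Grm7, Gabra3, Gabra4, Gabra6, Gabre and Gabrg3. Each of the 39 lay below the array median on all 6 arrays, with group means from 2.57 to 73.6. Of the 39, 1 was lower (Grik3) and 1 higher (Grm4) on every Math2 array, against 4.32% and 6.40% of all probe sets left out by the filter. When the filter was lifted, limma called 0 of 61 members, as it called 0.00% of all probe sets.

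Proteins that anchor, assemble or modulate these receptors were described from lists. Of 40 glutamate receptor partners, 22 were tested, with 11 higher, 11 lower and a median log2 difference of -0.0086. Nptx1, a secreted neuronal pentraxin that clusters AMPA receptors, read 138, 128 and 214 in the control group and 357, 235 and 622 in the Math2 group. Every Math2 array was above every control array, which held for 3.70% of all tested probe sets. Of the 35 tested probe sets of this list, 1 was higher and 1 lower on every Math2 array. The log2 difference of Nptx1 was 1.23 (SE 0.39; limma adjusted p = 1, and 0.23 with the block), so it did not pass. The scaffold gene Dlg4, which holds NMDA and AMPA receptors at the synapse, read 574, 412 and 449 and then 192, 368 and 458, a difference of -0.56 (SE 0.35). Dlg1, a related scaffold, had means of 2188 ± 546 and 1640 ± 123 (SD, n = 3) and a difference of -0.39. Of 25 GABA receptor partners and further subunits, 14 were tested, with 5 higher, 9 lower and a median of -0.069. Kctd12, an auxiliary subunit of GABA-B receptors, read 949, 1099 and 1236 and then 914, 507 and 1172, lower in 3 of 3 pairs with a difference of -0.41, which was -0.072 without Math2 array 2 and -0.67 without Math2 array 3. The chloride importer gene Slc12a2 had a difference of -0.25 and the receptor trafficking gene Gabarap of 0.22. Limma called 0 genes of either list with or without the block; at an unadjusted p under 0.05 there was 1 of 22 (Nptx1) among the glutamate receptor partners and 0 of 14 among the GABA receptor partners either way, against 3.19% of all tested probe sets without and 7.70% with the block.

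Genes for making, releasing and clearing the transmitters did not pass either, and 1 of each list (Gls2 of 8 and Abat of 5 genes) had an unadjusted limma p under 0.05 with the block, where 7.70% of all tested probe sets did, and 0 without it. Of 13 glutamate handling genes, 8 were tested, with a median of 0.076. Gls2, a glutaminase, read 53.0, 72.6 and 129 and then 244, 74.9 and 199, a difference of 0.90 (SE 0.49). Its control mean, 84.9, lay below the array medians, though control array 3 lay above them. The mitochondrial glutamate dehydrogenase gene Glud1 had a difference of -0.20. The astrocyte glutamate transporter gene Slc1a3 had 0.17, which was -0.20 with quantile normalization. Of 9 GABA handling genes, 5 were tested, with 1 higher, 4 lower and a median of -0.30. Abat, which breaks down GABA, read 184, 191 and 198 in the control group and 123, 162 and 65.6 in the Math2 group. Every Math2 array was below every control array, which held for 1 of the 6 tested probe sets of this list and 4.30% of all tested. The log2 difference of Abat was -0.76 (SE 0.37; limma adjusted p = 1, and 0.629 with the block). Aldh5a1, the next enzyme of that pathway, had a difference of -0.35, and Dbi, a ligand at GABA-A receptors, of -0.30.

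**Figure D4:**
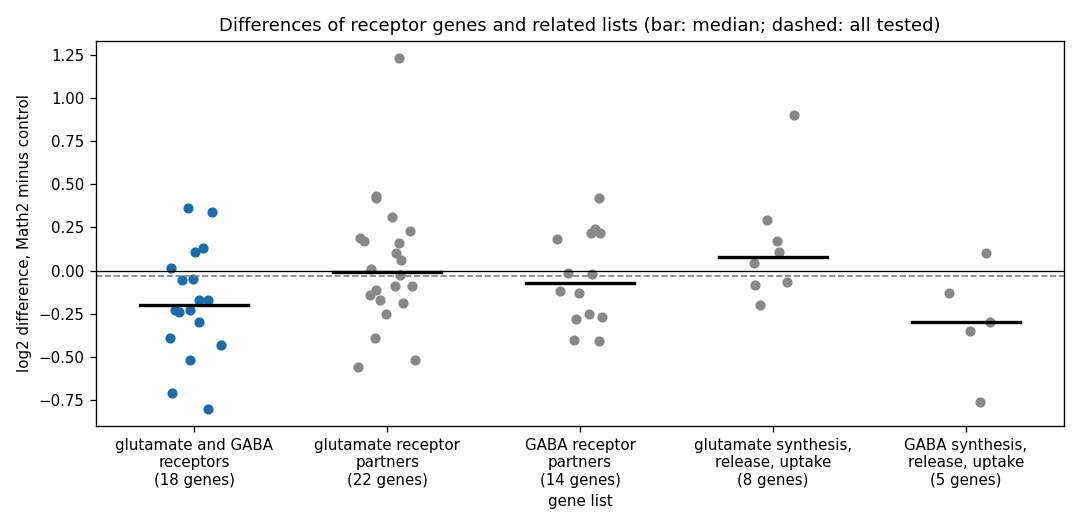
Log2 difference, Math2 minus control, of each tested gene (points, 1 probe set per gene) among the receptors and 4 lists of related genes; bars are list medians and the dashed line is the median of all tested probe sets. Medians are -0.20, -0.0086, -0.069, 0.076 and -0.30 from left to right, and the highest point is Nptx1 at 1.23.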

How the data were processed

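Total RNA of 3 control and 3 Math2 samples was labelled in 2 cycles and hybridized to Affymetrix Rat Genome 230 2.0 arrays. The authors deposited linear intensities, 1 for each probe set on each array, and MAS5 is named, with no version, per the submitters' processing notes. The trimmed mean was 500 on every array, so the authors' scaling was kept. Of 31099 probe sets, 57 control probe sets were left out. All 61 member probe sets matched RefSeq genes of GRCr8 by gene number.

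Signals were transformed to log2(signal + 7.42), the pseudocount being the 10th percentile, which understates differences of dim probe sets. The filter kept probe sets whose mean reached the 40th percentile (6.07). They were tested two-sided with limma 3.58.1 in R 4.3.3 (lmFit, eBayes with trend), and p-values were adjusted by Benjamini-Hochberg over 18625 probe sets, with a threshold of 0.05. A gene stood by its brightest tested probe set. Intervals are 95% and come from the fit without a block. Class medians have no test.

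Deviations from group means correlated at 0.326, 0.476 and 0.372 for arrays sharing number 1, 2 and 3, above the limit of 0.1 set for pairing. The other combinations ran from -0.46 to 0.104, and control 1 with Math2 3, at 0.104, also passed the limit. Deviations sum to 0 within each group, so positive values for like numbers push the others down, and this contrast is weak support for pairing. On that basis a fit with the number as a block was run as the alternative. The main fit, which gave the intervals and p-values unless the block is named, did not pair the samples. Adjusted p-values with the block stand where they matter.

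Members, lists and tests were chosen with earlier results of these data known. Given array by array were the genes with the smallest p of each class, up to 3, the brightest of each class, any member with an unadjusted p under 0.05 with or without the block, genes with several probe sets, and up to 3 genes of each related list; others were added to complete each class.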

Additional observations from a re-analysis of the deposited data

How the results depend on the processing

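Receptor probe sets called stayed at 0 under all 15 alternatives, which changed the pseudocount (1 or 32), the filter, the normalization, the variance prior, the replicate block or left out 1 array. Across the whole array 0 were called except with the replicate block, which gave 3, and with the replicate block and quantile normalization, which gave 5. The receptor median of -0.20 ran from -0.33 to -0.022 when 1 array was left out; that of glutamate receptors from -0.36 to -0.022 and of GABA receptors from -0.28 to 0.068. Without a filter the AMPA median was 0.052 and the metabotropic one 0.23, and the GABA-B median was -0.054 over all probe sets. At the stricter filter no kainate or NMDA gene was left. Of the 22 tested members, 12 changed direction when 1 array was left out: Gria2 1387171_at (-0.61 to 0.075), Gria3 1376892_at (-0.48 to 0.032) and 1368691_at (-0.10 to 0.73), Grik2 (-0.57 to 0.18), Grik4 (-0.17 to 0.24), Grin1 (-0.17 to 0.057), Grin3a (-0.58 to 0.27), Grm5 (-0.97 to 0.28), Gabra5 (-0.13 to 0.30), Gabrb2 (-1.23 to 0.29), Gabbr1 1375720_at (-0.15 to 0.036) and Gabbr2 (-0.33 to 0.45). So did Dbi (-0.77 to 0.022), and Slc1a3 was -0.20 with quantile normalization, with and without the replicate block. The cause was not tested. The dim signals of NMDA and metabotropic receptors limit what can be seen.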
